A study of Mus musculus and Homo sapiens with 30 samples.

Results

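The genes that break heme down, carry it across membranes and respond to it were followed in 3 cell lines: 8 mouse genes (Hmox1, Hmox2, Blvra, Blvrb, Bach1, Slc48a1, Flvcr1 and Fech) of 56980 gene IDs in the mouse table, and 5 human genes (HMOX1, HMOX2, BLVRA, BLVRB and BACH1) of 61552 IDs in the human table. They were chosen by name for their place in the pathway. All 13 passed the filter on low counts. SkBr3 is a human breast cancer line, E0771 a mouse mammary cancer line and NMuMG a line from mouse mammary gland epithelium, although the sample labels put breast cancer against each of them. The 30 libraries of poly(A) RNA fell into 9 groups of line and medium, each with 4 replicates for SkBr3 and 3 for either mouse line.

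The control groups stayed in standard growth medium, which was DMEM and FBS (10%) for E0771 and SkBr3. For all NMuMG groups the same base was listed with a glucose content of 4.5 g/L and with insulin at 10 mcg/ml. The lean and obese groups received a mixture of 50% standard medium and 50% secretome, that is medium conditioned by inguinal adipocytes from a lean or an obese source. Cells had grown for 36 h beforehand and were kept in these media for 16 h. The species, strain and diet behind the adipocytes, and whether replicates were separate cultures or separate secretome preparations, were not given in the labels, so the p-values measure the spread between these libraries only. The control medium held no secretome, so the comparison of lean with obese secretome is the one in which the share of secretome was matched.

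Heme oxygenase opens the heme ring and releases biliverdin, carbon monoxide and iron, with electrons passed on by cytochrome P450 reductase. Biliverdin reductases then turn biliverdin into bilirubin. BACH1 is a repressor that binds heme: paired with small MAF proteins it sits on antioxidant response elements of HMOX1 and related genes, and heme binding takes it off the DNA. The inducible enzyme HMOX1 is among the genes that respond most to oxidants and to heme in many cell types, whereas HMOX2 is the constitutive form.

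Total counts ranged from 18479433 to 31094119 per library. Levels are given as CPM, counts scaled to the library total after TMM adjustment (1 scaling over all 18 mouse libraries, another over the 12 SkBr3 libraries), and "called" means an adjusted p under 0.05 in edgeR's quasi-likelihood F test with Benjamini-Hochberg adjustment over every gene tested in that line. CPM is a share of a library's RNA, so more transcripts per cell and more cells with transcripts cannot be told apart. As for the lines' labelled identities, the 7 epithelial markers looked up summed to 8212 to 8438 CPM in NMuMG lean and 7112 to 7910 CPM in its other libraries. Epcam and Cldn4 were at most 2.74 CPM there, but all 7 passed the filter. In E0771 only Krt8 (219.6 to 247.7 CPM) did: Krt18, Krt19, Cldn4, Epcam and Cdh1 were at or near 0, and the fibroblast marker Col1a1 was at 606.5 to 696.6 CPM in control, 184.4 to 212.4 CPM in lean and 400.6 to 583.6 CPM in obese libraries. The summed fibroblast markers (3 of 6 passed the filter), mostly Col1a1, were at 828.9 to 941.2 CPM in control, 321.7 to 358.5 CPM in lean and 617.2 to 833.3 CPM in obese libraries. Col3a1 was lower in lean (36.6 to 47.9 CPM) than in the other libraries (107 to 134 CPM). Pdgfra moved little (110.5 to 113.2 CPM in control, 96.5 to 100.5 CPM in lean and 109.2 to 115.7 CPM in obese libraries). Col1a2, Dcn and Lum were at or near 0. In NMuMG the fibroblast markers summed to at most 6.49 CPM. Of 4 myoepithelial or basal markers 2 passed the filter in each mouse line, with Trp63 at or near 0. They summed to 27.6 to 34.4 CPM in E0771 lean libraries against 16.9 to 18.9 CPM in the others, nearly all of it Acta2. In NMuMG they summed to 9.36 to 11.1 CPM in lean, 18.9 to 19.4 CPM in control and 12.2 to 13.3 CPM in obese libraries: Acta2 was at 18.4 to 19.0 CPM in control and 3.54 to 3.95 CPM in lean libraries, and Krt5 at 0.174 to 0.332 and 5.24 to 6.86 CPM. The part of these markers in the results was not tested. No marker of red cell precursors passed the filter in either mouse line (summed level at most 0.932 CPM), and the summed adipocyte markers stayed at or under 2.27 CPM (2.10 to 2.27 CPM in NMuMG lean libraries, at most 1.14 CPM in its others), with Lep and Cfd at or near 0. Macrophage markers summed to at most 0.653 CPM in E0771, and in NMuMG to between 75.7 and 95.6 CPM, nearly all of it Mrc1. Markers were not looked up in SkBr3.

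Promoter sequences were looked at because several of the genes rose together. The sequence table (RefSeq, GRCm38.p6) held windows from 250 bases before to 50 bases after a start for 5 of the 8 mouse genes, 8 windows in all, with none for Hmox1, Slc48a1 and Fech. Each was searched on both strands for the antioxidant response core TGACNNNGC, which 12.4% of all 32817 windows of this length held, for the AP-1 site TGANTCA (7.81%) and for the E-box CACGTG (7.15%). The 250 bases before the start are printed for Flvcr1 (chr1:191026191-191026440, minus strand) and Blvra (chr2:127070407-127070656, plus strand), which held the antioxidant response core, and for Blvrb (first of its 2 windows, chr7:27447728-27447977, plus strand) and Bach1 (chr16:87698704-87698953, plus strand), which did not. Capitals mark the core. It began at position -151 from the start in Flvcr1, on the gene's strand, and at -49 in Blvra, on the other strand. No window of Blvrb, Bach1 or Hmox2 held any of the 3 motifs, and neither Flvcr1 nor Blvra held the AP-1 site or the E-box.
Flvcr1: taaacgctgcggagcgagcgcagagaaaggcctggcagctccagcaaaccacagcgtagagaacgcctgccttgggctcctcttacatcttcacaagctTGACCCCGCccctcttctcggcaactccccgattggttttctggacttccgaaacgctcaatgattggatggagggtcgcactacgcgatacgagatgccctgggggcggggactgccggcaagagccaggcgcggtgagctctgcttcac
Blvra: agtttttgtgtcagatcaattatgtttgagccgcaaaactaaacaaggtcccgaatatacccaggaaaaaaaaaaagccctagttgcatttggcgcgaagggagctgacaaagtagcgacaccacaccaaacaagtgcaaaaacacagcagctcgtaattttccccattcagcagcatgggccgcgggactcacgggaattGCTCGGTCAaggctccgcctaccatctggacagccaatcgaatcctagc
Blvrb: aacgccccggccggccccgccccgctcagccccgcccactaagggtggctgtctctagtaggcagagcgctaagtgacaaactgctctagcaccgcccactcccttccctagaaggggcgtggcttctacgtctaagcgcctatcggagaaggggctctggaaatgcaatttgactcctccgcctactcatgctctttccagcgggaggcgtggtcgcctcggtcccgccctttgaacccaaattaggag
Bach1: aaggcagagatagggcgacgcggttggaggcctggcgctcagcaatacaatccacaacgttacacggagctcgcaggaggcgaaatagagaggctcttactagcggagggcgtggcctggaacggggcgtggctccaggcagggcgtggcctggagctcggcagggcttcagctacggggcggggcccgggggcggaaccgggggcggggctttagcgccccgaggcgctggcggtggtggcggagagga

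HMOX1, the inducible heme oxygenase, was higher with the lean secretome than in both other media in all 3 lines. In E0771 the 3 control libraries held 78.3, 83.0 and 89.9 CPM of Hmox1, the lean libraries 1337, 1296 and 2172 CPM and the obese libraries 243, 107 and 134 CPM. Every lean library was above every obese library, and every obese library above every control, with the first obese library apart from the other obese libraries. The level rose 9.85-fold with lean over obese secretome (log2 fold change 3.30, SE 0.375, edgeR adjusted p = 0.000355) and 18.8-fold with lean secretome over control (4.23, SE 0.396, adjusted p = 0.000114). Obese secretome over control gave 0.93 (95% interval 0.037 to 1.83, adjusted p = 0.304) and was not called.

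In NMuMG the same gene stood at 55.4, 56.7 and 56.4 CPM in control, 225, 209 and 273 CPM in lean and 111, 65.9 and 81.2 CPM in obese libraries. Again the 3 groups did not overlap, and the first obese library was the highest of its group. Lean over obese secretome gave a 2.75-fold rise (log2 fold change 1.46, SE 0.195, edgeR adjusted p = 0.00145) and lean secretome over control a 4.20-fold rise (2.07, SE 0.201, adjusted p = 0.000261). With obese secretome over control the log2 fold change was 0.61 (95% interval 0.103 to 1.12, adjusted p = 0.204), which was not called. In SkBr3, HMOX1 was low without lean secretome: the control libraries held 7.04, 7.48, 5.92 and 6.83 CPM, the lean libraries 80.3, 76.8, 47.3 and 82.2 CPM and the obese libraries 14.9, 6.86, 8.70 and 16.3 CPM. Lean libraries lay above all others, while the obese libraries ran from the control level, in obese replicate 2, to over 16 CPM in replicate 4. HMOX1 rose 6.12-fold with lean over obese secretome (log2 fold change 2.61, SE 0.267, adjusted p = 4.63e-05) and 10.5-fold over control (3.39, SE 0.294, adjusted p = 9.2e-06). The third lean library held 47.3 CPM; without it the lean over obese change was 2.84. The interval of obese secretome over control ran from 0.018 to 1.53 (log2 fold change 0.78, adjusted p = 0.353).

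**Figure D1:**
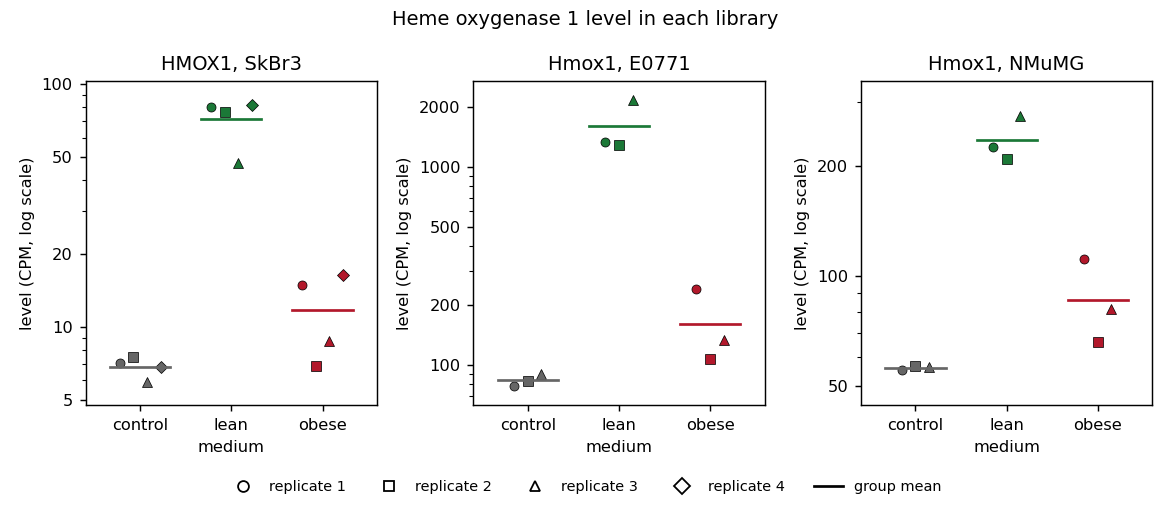
CPM of HMOX1 (SkBr3) and Hmox1 (E0771, NMuMG) on log axes, 1 point per library by medium, with the shape giving the replicate number and the bar the group mean. Lean libraries sit above all others in each line (1296 to 2172 CPM in E0771), and the first obese library of both mouse lines is the highest of its group.

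HMOX2, the constitutive heme oxygenase, moved little and not in 1 direction. In SkBr3 it fell with the lean secretome: the lean libraries held 64.0, 62.8, 69.7 and 62.9 CPM, below the controls (80.5, 80.9, 83.6 and 81.2 CPM) and the obese libraries (76.7, 77.8, 81.4 and 78.2 CPM). The lean libraries overlapped neither of the other groups, which overlapped each other. The log2 fold change was -0.28 for lean over obese (SE 0.0418, edgeR adjusted p = 1.84e-05) and -0.33 for lean over control (SE 0.0420, adjusted p = 1.23e-06). In E0771 the controls held 37.0 to 43.1 CPM, the lean libraries 45.1 to 47.7 CPM and the obese libraries 40.2 to 44.5 CPM. Hmox2 rose there over control (0.21, adjusted p = 0.00507), and lean over obese gave 0.11 (95% interval -0.014 to 0.231, adjusted p = 0.129). In NMuMG all 9 libraries lay between 45.5 and 52.4 CPM, and the interval of lean over obese ran from -0.182 to 0.0229.

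Per kilobase of exon, on which scale levels of different genes can be set side by side, Hmox1 stood at 47.8 ± 3.34 CPM per kb (SD, n = 3) and Hmox2 at 17.9 ± 1.40 in E0771 control medium. With lean secretome they stood at 915 ± 282 and 21.0 ± 0.593 CPM per kb. In NMuMG the control levels were 32.1 ± 0.381 for Hmox1 and 22.3 ± 0.362 CPM per kb for Hmox2, and the lean levels 135 ± 19.0 and 21.4 ± 1.08. Hmox1 was thus the more abundant heme oxygenase transcript in every mouse group, and the gap widened with lean secretome. Exon lengths came from another build than the one the authors named, so these are approximate. Hmox2 shares bases with Cdip1 on the opposite strand (34.6 to 56.0 CPM), and the strand setting of the counting is not given in the sources used here.

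Of the biliverdin reductases, Blvrb moved and Blvra mostly did not. BLVRB reduces flavins and the beta isomer of biliverdin, while BLVRA makes bilirubin from the alpha isomer that heme oxygenase releases. In NMuMG, Blvrb was nearly silent in control medium, at 3.83, 4.88 and 4.06 CPM, and reached 33.1, 31.5 and 35.2 CPM with lean secretome, against 7.70, 5.03 and 3.79 CPM with obese secretome. Lean libraries lay far above the rest, and the obese libraries overlapped the controls. The rise was 6.10-fold over obese (log2 fold change 2.61, SE 0.178, edgeR adjusted p = 3.8e-06) and 7.84-fold over control (2.97, SE 0.181, adjusted p = 1.31e-06). Obese over control gave 0.36 (95% interval -0.177 to 0.902, adjusted p = 0.518), but 0.58 without the third obese library (adjusted p = 0.0283).

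E0771 started from a 15.7-fold higher Blvrb level, with controls at 62.9, 64.9 and 73.2 CPM. Its lean libraries held 145, 150.2 and 161 CPM and its obese libraries 121, 75.4 and 79.9 CPM. The groups did not overlap, although the first obese library lay closer to the lean libraries than to the other obese ones. Blvrb rose 2.23-fold over control (log2 fold change 1.16, SE 0.187, edgeR adjusted p = 0.00186) and 1.64-fold over obese (0.71, SE 0.183, adjusted p = 0.0166). The lean over obese call was lost without the third lean library (0.67, adjusted p = 0.0517), the second obese library (0.58, adjusted p = 0.0505) or the third obese library (0.61, adjusted p = 0.0583). In SkBr3, BLVRB stood at 57.2, 60.2, 64.2 and 62.6 CPM in control, 119.6, 127, 98.6 and 124 CPM in lean and 71.2, 59.0, 63.2 and 69.8 CPM in obese libraries. Lean libraries were again apart from the others, with a log2 fold change of 0.84 over obese (SE 0.0758, adjusted p = 1.84e-06) and 0.95 over control (SE 0.0768, adjusted p = 2.47e-07).

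Ordered by mean CPM, the 6 mouse groups ran for Blvrb from NMuMG control (4.26 ± 0.553, SD, n = 3) and NMuMG obese (5.51 ± 2.00), which overlapped, through NMuMG lean (33.3 ± 1.84), E0771 control (67.0 ± 5.46) and E0771 obese (92.0 ± 25.0) to E0771 lean (152 ± 8.37). From NMuMG obese upward no group overlapped the next. The NMuMG lean level therefore remained below every E0771 library. For Hmox1 the order began with NMuMG control (56.2 ± 0.668) and ended with E0771 lean (1602 ± 495), and the 4 groups between them each overlapped the next, except that NMuMG lean (236 ± 33.2) was below every E0771 lean library.

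Blvra lay between 20.8 and 25.1 CPM in all E0771 libraries and between 33.2 and 41.3 CPM in all NMuMG libraries. The intervals of lean over obese ran from -0.0843 to 0.205 in E0771 and from 0.000294 to 0.239 in NMuMG (edgeR adjusted p = 0.494 and 0.115). Lean over control was not called in either mouse line (0.09, adjusted p = 0.282 in E0771, and 0.07, adjusted p = 0.388 in NMuMG). In SkBr3, BLVRA was called higher with lean secretome over control. It went from 41.8, 41.6, 42.3 and 45.5 CPM to 61.9, 55.5, 46.5 and 64.2 CPM (log2 fold change 0.42, SE 0.0849, adjusted p = 0.000832). Its obese libraries, at 50.2, 45.6, 51.5 and 55.2 CPM, overlapped the lean ones and lay just above the controls. Lean over obese gave 0.17 (95% interval -0.0036 to 0.351, adjusted p = 0.104), which became 0.25 (adjusted p = 0.000376) without the third lean library and was called with no filter on low counts (0.17, adjusted p = 0.00768) and with a replicate block (0.17, adjusted p = 0.0354). Obese over control gave 0.25 (adjusted p = 0.196) and was called without the third lean library (adjusted p = 0.00782). It was called also with no filter (adjusted p = 0.000743) and with only these media in the fit (adjusted p = 0.00267).

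The heme carriers followed different courses. Slc48a1 (HRG1) moves heme out of endosomes and lysosomes into the cytosol. In E0771 its controls held 409.7, 409.8 and 419 CPM, the lean libraries 710.2, 727 and 729 CPM and the obese libraries 630.1, 457 and 484 CPM. In NMuMG the controls held 73.5, 75.9 and 75.1 CPM, the lean libraries 200.2, 195 and 212 CPM and the obese libraries 138, 88.0 and 98.5 CPM. The 3 groups were apart in both lines, and in both the first obese library was well above the other obese libraries.

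Slc48a1 rose with lean over obese secretome by 0.45 on the log2 scale in E0771 (SE 0.115, edgeR adjusted p = 0.0156) and by 0.91 in NMuMG (SE 0.156, adjusted p = 0.00465). Over control it rose by 0.78 (SE 0.116, adjusted p = 0.00109) and by 1.43 (SE 0.160, adjusted p = 0.000522). Obese over control was not called in either line (0.33, adjusted p = 0.243, and 0.53, adjusted p = 0.163), but it was without the first obese library: 0.18 in E0771 (adjusted p = 0.0195) and 0.32 in NMuMG (adjusted p = 1.6e-05). DESeq2 called it in NMuMG (0.53, adjusted p = 0.0348). Slc48a1 overlaps Hdac7 on the opposite strand, which lay at 146 to 164 CPM in E0771 control and 96.0 to 106 CPM in E0771 lean libraries, so that it moved the other way from Slc48a1 there. In NMuMG, Hdac7 lay between 235 and 265 CPM in all media.

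Flvcr1, described as an exporter of heme from the cell and also as a choline carrier, changed in E0771 but not detectably in NMuMG. The E0771 controls held 61.2, 58.6 and 54.4 CPM, the lean libraries 114, 107 and 133 CPM and the obese libraries 66.0, 54.7 and 59.5 CPM. Obese and control libraries overlapped, and the lean libraries lay above all of them. The change was 1.95-fold over obese (log2 fold change 0.96, SE 0.0866, edgeR adjusted p = 1.88e-06) and 2.00-fold over control (1.00, SE 0.0869, adjusted p = 1.18e-06). In NMuMG all 9 libraries lay between 34.6 and 38.2 CPM, and the interval of lean over obese ran from -0.0806 to 0.138 (0.03, adjusted p = 0.72). Its promoter window, printed above, held the antioxidant response core at position -151. The window of Blvra also held it, at -49, while those of Blvrb and Bach1 did not. A link between the core and the changes in level was not tested.

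Bach1, the heme-binding repressor, rose with lean secretome in E0771 and SkBr3. In E0771 the controls held 43.9, 46.1 and 48.6 CPM, the lean libraries 68.5, 67.9 and 77.9 CPM and the obese libraries 54.1, 52.3 and 53.2 CPM. The groups were fully apart, in the order control, obese, lean. Lean over obese gave 0.41 (SE 0.0554, edgeR adjusted p = 9.17e-07) and lean over control 0.61 (SE 0.0561, adjusted p = 2.11e-09). Obese over control gave 0.19 (95% interval 0.0758 to 0.312, adjusted p = 0.0733). That was called in 5 of 14 alternatives: with no filter on low counts (adjusted p = 0.0217), by DESeq2 (0.0472), with only these media (0.0325), without the third control (0.0362) and without the third lean library (0.0167).

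In SkBr3, BACH1 stood at 38.2, 39.9, 39.2 and 38.7 CPM in control, 52.4, 52.4, 46.3 and 52.2 CPM in lean and 42.2, 43.3, 40.9 and 40.4 CPM in obese libraries, with no overlap between any pair of groups. It rose by 0.29 over obese (SE 0.0486, edgeR adjusted p = 5.99e-05) and by 0.38 over control (SE 0.0493, adjusted p = 1.48e-06). NMuMG libraries lay between 31.0 and 37.1 CPM in all media, and lean over obese gave 0.09 (95% interval -0.0285 to 0.214, adjusted p = 0.242). The mRNA level says nothing of how much BACH1 protein was bound to heme or to DNA.

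Fech, ferrochelatase, puts iron into protoporphyrin in the last step of heme synthesis. It stood at 64.6 to 71.3 CPM in control, 75.9 to 86.3 CPM in lean and 69.3 to 75.4 CPM in obese libraries of E0771, and at 81.3 to 85.6, 93.1 to 95.9 and 78.9 to 86.1 CPM in those of NMuMG. Lean libraries were the highest in both lines by a small margin. Lean over obese gave 0.15 in E0771 (SE 0.0546, edgeR adjusted p = 0.0219) and 0.18 in NMuMG (SE 0.0419, adjusted p = 0.000656). Lean over control gave 0.27 (adjusted p = 0.000184) and 0.19 (adjusted p = 0.000437). In E0771 the lean over obese call was lost without the first (0.13, adjusted p = 0.0763) or second lean library (0.11, adjusted p = 0.124) or the second obese library (0.11, adjusted p = 0.137).

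**Figure D2:**
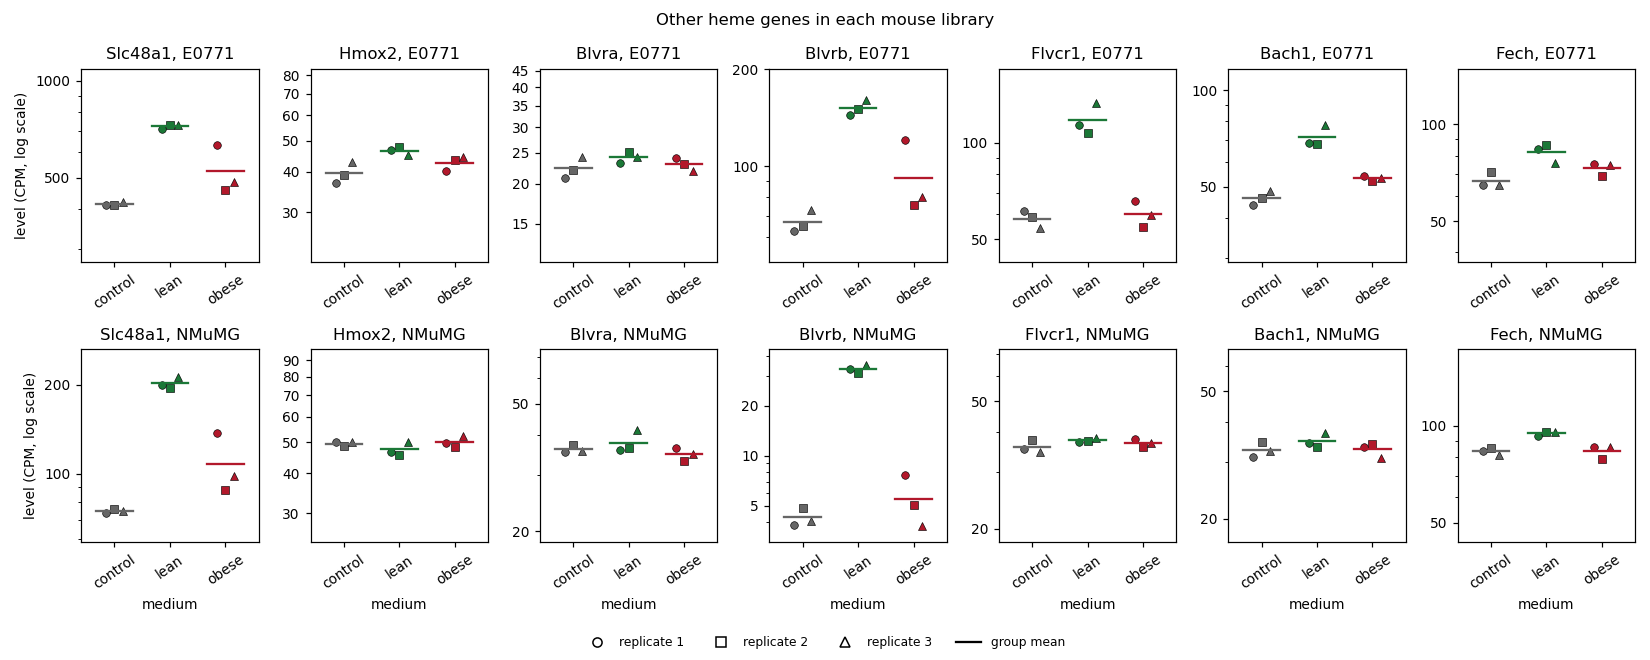
CPM of the other mouse genes on log axes, 1 point per library, E0771 above and NMuMG below, with the shape giving the replicate number and the bar the group mean. Slc48a1 and Blvrb rise with lean secretome in both lines, Flvcr1 and Bach1 in E0771, and Blvra and Hmox2 show little separation.

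With lean over obese secretome, 6 of 8 genes were called in E0771, all higher, where 25.8% of all tested genes were called higher and 52.7% were called in either direction. In NMuMG it was 4 of 8 (Hmox1, Blvrb, Slc48a1 and Fech), all higher, beside 17.6% called higher and 35% in either direction. In SkBr3 it was 4 of 5, with HMOX1, BLVRB and BACH1 higher (21.1% of all genes) and HMOX2 lower (23.1%), beside 44.1% in either direction. The median log2 fold change of the members was 0.43 in E0771, 0.15 in NMuMG and 0.29 in SkBr3, and that of all tested genes was 0.00 in each line to 2 decimals. The lean and obese libraries were fully separated for 7 of 8 genes in E0771, 4 of 8 in NMuMG and 4 of 5 in SkBr3, as they were for 60.5%, 45.3% and 34.8% of all genes. Without the second obese library the E0771 count of calls was 4, since both Blvrb and Fech were lost.

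Over control, lean secretome called 7 of 8 in E0771, all higher (27.3% of all genes were called higher, 56.3% in either direction), and 4 of 8 in NMuMG, all higher (19.1% and 38.2%). In SkBr3 it called 5 of 5 (48.8%), 4 of them higher (23.7%) and HMOX2 lower (25.1%). The groups did not overlap in 7 of 8 genes in E0771, 4 of 8 in NMuMG and 5 of 5 in SkBr3, beside 61.4%, 47.8% and 41.6% of all genes tested. These contrasts share the lean libraries with those above. Obese secretome over control called 0 genes of the 8 in E0771 (2.61% of all genes), 0 in NMuMG (5.01%) and 0 of 5 in SkBr3 (1.16%) in edgeR. At an unadjusted p under 0.05 there were 4, 2 and 2, beside 2130 of 13813, 2489 of 15014 and 2039 of 14874 genes tested. DESeq2 called 1 (Bach1), 1 (Slc48a1) and 0, beside 478 of 13812, 662 of 15011 and 388 of 14874. Obese and control libraries did not overlap for 4 of 8 genes in E0771, 2 of 8 in NMuMG and 2 of 5 in SkBr3. The share of all genes with that separation was not counted, so these numbers have no background beside them. The point estimates of obese over control were above 0 for every gene in E0771, all but Blvra in NMuMG and all but HMOX2 in SkBr3. The median over all tested genes was 0.00 in each line to 2 decimals. Before adjustment, intervals lay above 0 for Hmox1, Slc48a1, Bach1 and Fech in E0771. The same held for Hmox1 and Slc48a1 in NMuMG and for HMOX1 and BLVRA in SkBr3.

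**Figure D3:**
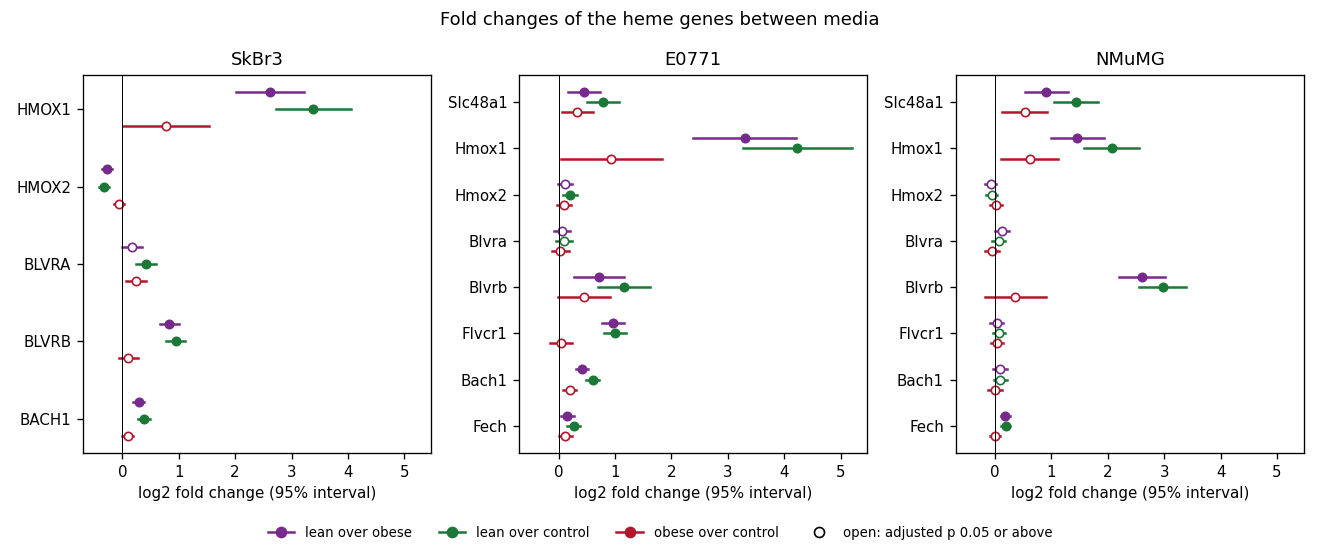
Log2 fold change of each gene with its 95% interval in the 3 comparisons of media, by line; filled points have an adjusted p under 0.05. HMOX1 has the largest change in SkBr3 (2.61 over obese) and in E0771 (3.30), Blvrb in NMuMG (2.61), and every obese over control point is open.

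The libraries with obese secretome were uneven, in the same order for some genes and not for others. On the log2 scale from the control mean (0%) to the lean mean (100%), the first obese library of E0771 stood at 36.4% for Hmox1, 72.9% for Blvrb and 77.0% for Slc48a1, against 8.32% to 27.4% for the other obese libraries of that line. In NMuMG the first obese library stood at 47.7%, 28.8% and 61.3%, and the others between -5.39% and 27.4%. In SkBr3, obese replicates 1 and 4 stood at 33.4% and 37.5% for HMOX1, and replicates 2 and 3 at 0.394% and 10.6%. In E0771, Fech (61.7%, 16.4% and 53.3%), Flvcr1 (17.7%, -9.36% and 1.93%) and Bach1 (36.7%, 28.5% and 31.2%) had the order of Hmox1, Blvrb and Slc48a1. For Bach1 the range was narrow. Hmox2 there followed another order and was lowest in the first obese library (5.46%, against 60.8% and 72.9%). BACH1 in SkBr3 was highest in obese replicate 2 (39.5%) and lowest in replicate 4 (13.4%). The labels do not say whether libraries with the same number received the same secretome preparation.

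The response of 5 of the 8 genes to lean over obese secretome differed between E0771 and NMuMG, in an interaction test over the 18 mouse libraries in which 34.2% of all genes were called. The rise in E0771 was larger by 1.86 on the log2 scale for Hmox1 (SE 0.412, edgeR adjusted p = 0.00314), by 0.95 for Flvcr1 (SE 0.0996, adjusted p = 1.84e-08) and by 0.34 for Bach1 (SE 0.0837, adjusted p = 0.00133). Blvrb went the other way, with a difference of -1.88 (SE 0.303, adjusted p = 0.000275). Hmox2 differed by 0.20 (adjusted p = 0.0418), a call that 11 of 24 alternatives lost, with adjusted p-values from 0.0236 to 0.143. The libraries without which it was lost were lean replicates 1 and 2 and obese replicate 1 of E0771, and lean replicates 1 and 2 and obese replicates 1 and 3 of NMuMG. Slc48a1 differed by -0.44 (95% interval -0.866 to -0.0168, adjusted p = 0.106). That became -0.65 (adjusted p = 0.0044) without the first obese library of NMuMG and -0.50 (adjusted p = 3e-08) without the first obese library of both lines. Blvra (-0.04, interval -0.231 to 0.145) and Fech (-0.02, interval -0.158 to 0.125) were not called.

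Against control medium the same test called 6 of 8 (34.5% of all genes). Hmox1 differed by 2.19 (SE 0.424, edgeR adjusted p = 0.00118), Flvcr1 by 0.96 (SE 0.0991, adjusted p = 1.45e-08), Bach1 by 0.54 (SE 0.0836, adjusted p = 1.74e-06), Hmox2 by 0.29 (SE 0.0791, adjusted p = 0.00297) and Blvrb by -1.79 (SE 0.313, adjusted p = 0.000544). Slc48a1 differed by -0.63 (SE 0.197, adjusted p = 0.0254), which was lost without the first lean library of E0771 (adjusted p = 0.0502) or the first control of NMuMG (adjusted p = 0.0556). Before any secretome the lines already differed: Slc48a1 was 5.51-fold and Hmox1 1.49-fold higher in E0771 than in NMuMG control medium, and Blvra was 1.61-fold lower. In both lines lean secretome took Hmox1 and Slc48a1 above their control level, but the gene with the greatest change was Hmox1 in E0771 and Blvrb in NMuMG. For obese over control, 0 of 8 differences were called (1.69% of all genes). At an unadjusted p under 0.05 there was 1 (Bach1), beside 2176 of 16529 genes, and DESeq2 called 0, beside 422 of 16525. Insulin and a glucose content were listed for the NMuMG medium alone, and medium and line cannot be told apart in these differences. SkBr3 is in another table and species, and its responses were not tested against those of the mouse lines.

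**Figure D4:**
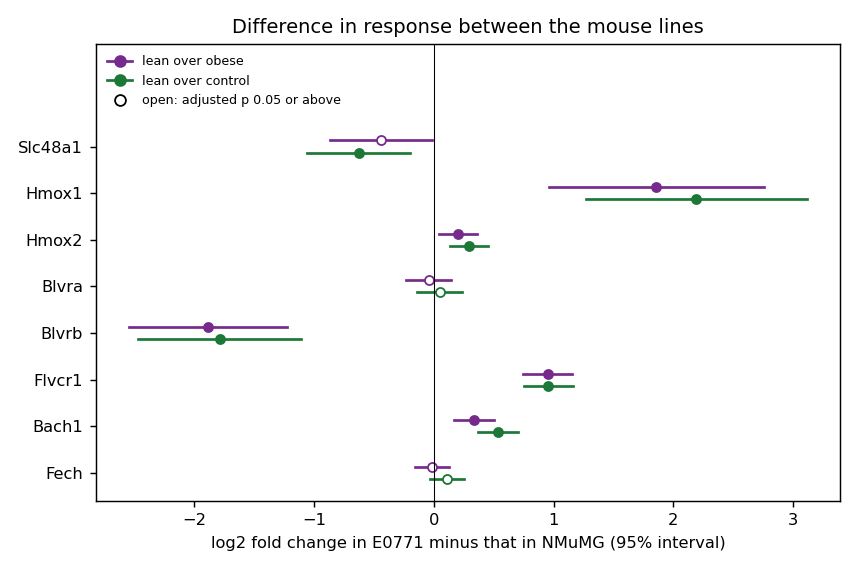
Log2 fold change in E0771 minus that in NMuMG for each gene, with the 95% interval, for lean over obese and lean over control; filled points have an adjusted p under 0.05. Hmox1, Flvcr1, Bach1 and Hmox2 lie to the right of 0 and Blvrb and Slc48a1 to the left, with Slc48a1 filled only for lean over control.

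The wider pathway was read from 6 gene lists, of which heme synthesis includes Fech, and transport and binding includes Slc48a1 and Flvcr1, so that these are counted again. Heme synthesis was called in part and in both directions: with lean over obese secretome, 2 genes rose and 3 fell of the 8 tested in E0771, and 2 rose and 2 fell of 8 in NMuMG, beside 52.7% and 35% of all genes called in either direction. The median log2 fold changes were -0.05 and 0.02. Alas1, the rate-limiting first enzyme, rose from 45.0, 48.1 and 52.5 CPM in E0771 controls to 143, 139.7 and 155 CPM with lean secretome, against 69.5, 55.6 and 63.2 CPM with obese secretome. The lean over obese change was 1.20 (SE 0.0695, edgeR adjusted p = 5.84e-10), and in NMuMG it was 0.80 (SE 0.105, adjusted p = 0.000756). Obese over control was called for Alas1 in E0771 (0.36, adjusted p = 0.0147), a call that was lost without the first or the second control or the third obese library. Alas2, the erythroid form, was under the filter in both lines. Without the first lean library of E0771 the list's count there was 3.

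Among 17 tested genes for transport and binding of heme and porphyrins, 13 were called in E0771, of which 6 were higher and 7 lower, and 8 in NMuMG (5 higher, 3 lower), beside 52.7% and 35% of all genes. Slc48a1 changed most among those called in NMuMG. Hpx (hemopexin, the plasma protein that binds free heme) had the largest change in E0771, at 1.11 (SE 0.42, edgeR adjusted p = 0.029), but it lay under 1 CPM in every E0771 library, and lean over control gave 0.22 (adjusted p = 0.647). In NMuMG, Hpx was at 47.8 to 60.8 CPM in all media.

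Of the partners and regulators of BACH1, 4 of 10 were called in E0771 (2 in each direction) and 5 of 9 in NMuMG, all higher, beside 52.7% of all genes called in E0771 and 17.6% called higher in NMuMG. Maff and Mafk are small MAF proteins, which pair with BACH1 and with its competitor NRF2. In E0771, Maff went from 2.57, 3.73 and 2.72 CPM in control to 7.10, 8.52 and 9.29 CPM with lean secretome, against 3.85, 2.94 and 3.25 CPM with obese secretome (lean over obese 1.30, SE 0.147, edgeR adjusted p = 7.54e-08). In NMuMG, Mafk changed most, from 31.6, 36.3 and 33.3 CPM to 55.1, 50.2 and 54.6 CPM, against 39.1, 34.1 and 35.1 CPM (0.57, SE 0.0581, adjusted p = 1.57e-09). Maff also rose in NMuMG (0.20, adjusted p = 0.0113) and Mafk in E0771 (0.75, adjusted p = 1.68e-08), both named after their values were seen.

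The genes known to be repressed by BACH1 were all higher: 11 of 11 tested in E0771 and 12 of 12 in NMuMG were called higher with lean over obese, beside 25.8% and 17.6% of all genes, with median log2 fold changes of 0.86 and 0.56. Over control the counts called higher were again 11 of 11 and 12 of 12, beside 27.3% and 19.1% of all genes. Most of these genes are also targets of the activator NRF2, and the list was drawn up with earlier results of these data known, so its direction is not independent evidence. Srxn1, which repairs overoxidised peroxiredoxins, rose in E0771 from 138, 137 and 140.4 CPM in control to 652, 631 and 722 CPM with lean secretome, against 279.8, 158 and 177 CPM with obese secretome (lean over obese 1.69, SE 0.213, edgeR adjusted p = 0.000597). Nqo1 (a quinone reductase) rose there by 1.45, Gclm (glutathione synthesis) by 1.43, Osgin1 by 1.14 and Sqstm1 (an autophagy receptor) by 1.05, with adjusted p-values between 0.000322 and 0.0161.

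In NMuMG, Nqo1 went from 0.941, 1.23 and 0.775 CPM in control to 8.33, 8.43 and 7.95 CPM with lean secretome, against 4.53, 0.946 and 1.38 CPM with obese secretome (1.87, SE 0.459, edgeR adjusted p = 0.0204). The obese libraries of this gene spread from the control level to 4.53 CPM, with the first one highest, as for Hmox1. Slc7a11, the cystine importer, went from 12.2, 13.4 and 13.5 CPM to 136, 119 and 141 CPM, against 59.5, 21.9 and 29.7 CPM (1.85, SE 0.322, adjusted p = 0.00492). With obese over control, 2 of 11 were called in E0771 (Ftl1, 0.53, and Me1, 0.29) and 1 of 12 in NMuMG (Osgin1, -0.14), beside 2.61% and 5.01% of all genes. These counts depended on single libraries. In E0771 the count was 0 without the first control, 4 without the first obese library, and 1 without the second control, the third control or the third obese library. In NMuMG it was 6 without the first obese library, 0 without the first control, the second control or the third obese library, 2 without the third lean or the second obese library, and 3 with DESeq2.

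Iron leaving heme is stored by ferritin, whose subunits Fth1 and Ftl1 are also in the list of genes repressed by BACH1. Of this iron list, 7 of 10 tested genes were called in E0771 (5 of them higher) and 9 of 11 in NMuMG (6 of them higher), beside 52.7% and 35% of all genes called and 25.8% and 17.6% called higher. In NMuMG, Fth1 went from 2037, 2064 and 1991 CPM in control to 5297, 5203 and 5624 CPM with lean secretome, against 3679, 2313 and 2627 CPM with obese secretome (0.91, SE 0.166, edgeR adjusted p = 0.00612). In E0771 the greatest change among those called was in Tfrc, the transferrin receptor that brings iron in, at 289, 308 and 291 CPM in control, 514, 489.8 and 449.7 CPM with lean and 342, 292 and 303 CPM with obese secretome (0.62, SE 0.0579, adjusted p = 3.16e-07). Ferritin and the transferrin receptor were thus higher together there, Fth1 by 0.53 (adjusted p = 0.00125). Ferritin genes have near-identical pseudogenes, and how the counting treated reads that match several places is not given in the sources used here. Slc40a1, which exports iron, was at or near 0 in E0771 and rose by 0.56 in NMuMG (adjusted p = 5e-09).

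Electron supply and disposal of bilirubin were measured through 4 genes. Por, the reductase that feeds heme oxygenase, rose in both lines, from 153, 159 and 165 CPM in E0771 controls to 227, 233 and 255 CPM with lean secretome, against 173, 157 and 163 CPM with obese secretome (0.52, SE 0.0457, edgeR adjusted p = 1.28e-09). In NMuMG its change was 0.34 (SE 0.0392, adjusted p = 1.64e-08). Abcc2, an exporter of conjugated bilirubin, went in NMuMG from 2.51, 3.34 and 3.80 CPM to 62.6, 51.5 and 72.8 CPM, against 13.4, 4.51 and 4.58 CPM (3.08, SE 0.370, adjusted p = 0.000864). With Ugt1a1, which conjugates bilirubin (0.95, adjusted p = 0.0175, at most 2.18 CPM), and Abcc3 (0.72, adjusted p = 1.6e-13), all 4 genes were called higher in NMuMG, beside 17.6% of all genes. In E0771, Abcc2 and Ugt1a1 were at or near 0 and not tested. Por was the 1 gene of the 2 tested there that was called, beside 52.7% of all genes called in either direction.

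**Figure D5:**
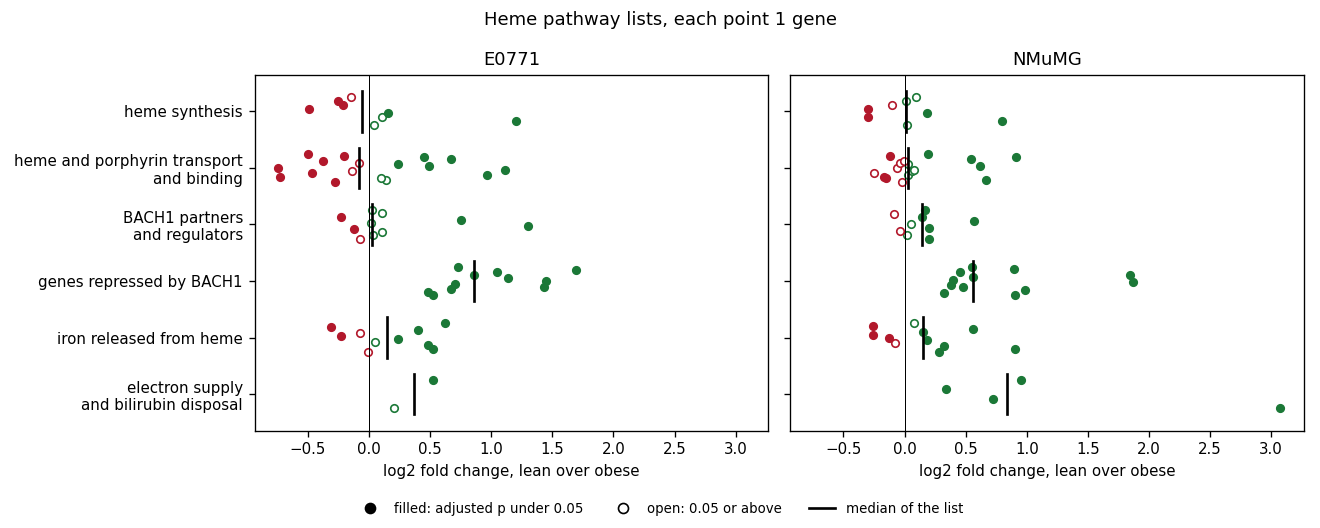
Log2 fold change of lean over obese secretome for each tested gene of the 6 lists, in E0771 (left) and NMuMG (right); filled points have an adjusted p under 0.05 and black bars are list medians. The genes repressed by BACH1 all lie to the right of 0 (medians 0.86 and 0.56), while synthesis and transport lie on both sides.

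The genes whose log2 CPM followed Hmox1 most closely over the 9 libraries of a line were, in E0771, M6pr (Pearson r = 0.9982), Cdkn1a (0.9974), Gsr (0.9973), Pes1 (0.9972) and Srd5a1 (0.9962), of 9547 genes ranked. In NMuMG they were Ugdh (0.9988), Srxn1 (0.9979), Abcc4 (0.9972), Gsto1 (0.997) and Prdx1 (0.9969), of 10190. These values describe 3 media of 3 libraries each, and much of each correlation is the step between lean and the other media. No gene was among the 5 in both lines. Among the heme genes the nearest to Hmox1 was Flvcr1 in E0771 (0.9785, rank 321, followed by Bach1 at 350) and Slc48a1 in NMuMG (0.9933, rank 15), while Flvcr1 and Bach1 ranked 2639 and 2948 there.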

How the data were processed

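RNA was read with paired 150 bp reads from directional poly(A) libraries, per the labels' protocols. The authors deposited raw counts per Ensembl gene ID, 1 table for the mouse and 1 for the human libraries; reads were trimmed with cutadapt 1.16, aligned with STAR 2.7.9a and counted with featureCounts 1.6.3, per the submitters' processing notes. GRCm39 is the only build those notes name. The human build, the annotation releases, the strand setting and the treatment of reads with several matches are not given in the sources used here.

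Each line was fitted with all 3 media in edgeR 4.0.16 (R 4.3.3): filterByExpr, TMM factors (0.9868 to 1.021), robust quasi-likelihood F tests and Benjamini-Hochberg adjustment within a contrast, over 14874 genes in SkBr3, 13813 in E0771 and 15014 in NMuMG. Standard errors came from the F statistic. Differences between the mouse lines were tested as an interaction over 16529 genes. Replicates of a group differed by more than counting error in each pair (chi-square over its degrees of freedom 1.992 to 15.23). Same-numbered libraries had correlations of residuals from -0.045 to 0.052 in SkBr3, -0.094 to 0.11 in E0771 and -0.028 to 0.025 in NMuMG, and numbers were not used as pairs.

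Mouse symbols and exon lengths came from GENCODE M21 on GRCm38; 52073 of 56980 IDs had a name. Human genes were taken by ID. The heme genes and lists were chosen with earlier results of these data known. All heme genes are named, and from each list the called genes with an absolute log2 fold change of at least 1 in lean over obese, or else the called gene with the largest change; Ftl1, Me1, Slc40a1, Ugt1a1 and Abcc3 were added after their values were seen, as were values of a named gene in the line where the rule did not pick it. The values of 1 gene of the heme synthesis list are not reported here. The pipeline was tested on simulated data. Alternatives were DESeq2 1.42.0, its size factors, no filter on low counts, fits of 2 media, a replicate block and each library left out.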

Additional observations from a re-analysis of the deposited data

Results flagged for a closer look

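In SkBr3 the third lean library stood apart from the other lean libraries for 2 of the genes. It held 47.3 CPM of HMOX1, where the others held 76.8 to 82.2 CPM, a gap of 0.846 of the group's whole range, and 46.3 CPM of BACH1, where the others held 52.2 to 52.4 CPM, a gap of 0.959. Both gaps were above Dixon's 95% critical value for groups of 4. Of 15 groups examined 2 met this, both in the same library, and chance flags about 1 in 20. That library was also the lowest of the lean group for BLVRA and BLVRB and the highest for HMOX2, so that it lay nearest to the control level in all 5 genes.

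The interaction test called a difference between E0771 and NMuMG for 5 of 8 genes in lean over obese and 6 of 8 over control. It called 34.2% and 34.5% of all genes. Values are E0771 minus NMuMG on the log2 scale. Hmox1 differed by 1.86 over obese and 2.19 over control, Flvcr1 by 0.95 and 0.96, Bach1 by 0.34 and 0.54 and Hmox2 by 0.20 and 0.29, all larger in E0771. Blvrb differed by -1.88 and -1.79, and Slc48a1 by -0.63 over control. Without the first obese library of both lines, an alternative chosen after seeing the data, the lean over obese differences were 2.06 for Hmox1, 1.00 for Flvcr1, 0.34 for Bach1 and -1.95 for Blvrb, each called. The Hmox2 difference was then 0.17 and no longer called (adjusted p = 0.143), and that of Slc48a1 was -0.50 and called (adjusted p = 3e-08).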

How the results depend on the processing

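No change of direction of a call was seen. Of 927 alternative values of the 63 fold changes of the heme genes, 906 kept their direction and their side of the threshold, 6 lost the call and 15 gained one; of 576 alternatives for the 24 differences between mouse lines, the numbers were 561, 13 and 2. Of 504 alternatives for the 36 counts of the gene lists, 464 stayed within 1.5 times the count and 40 did not. Those 40 concerned obese over control, except heme synthesis in E0771 over obese and the BACH1 partners in E0771 over control (5 to 3 without the third lean library). The counts for obese over control depended most on the settings. Heme genes called went from 0 to 1 in SkBr3 with no filter and with only 2 media (0 to 1 with a library left out), in E0771 with no filter, with DESeq2 and with only 2 media (0 to 1), and in NMuMG with DESeq2 (0 to 1). All genes called with obese over control were 172 in SkBr3, 539 with no filter, 388 with DESeq2, 849 with only 2 media and 20 to 655 with a library left out. In E0771 they were 360, 626 with no filter and 79 to 601 with a library left out, and in NMuMG 752 and 384 to 893. Differences called between the mouse lines for obese over control were 279, 428 with no filter, 422 with DESeq2, 149 to 392 with a library left out and 175 without the first obese library of both lines. The cause was not tested. With the replicate block, BLVRA in SkBr3 was called for lean over obese (0.17, adjusted p = 0.0354), which made 5 genes in place of 4, and it changed no other call of a heme gene within a line. In each line 3 libraries had their highest mean residual correlation with the libraries of their own number in the other media. That was 3 of 12 in SkBr3, with 4 numbers, and 3 of 9 in either mouse line, with 3 numbers. With plain library totals in place of TMM scaling, 50 of 63 mean levels moved by less than the spread between replicates, and the largest change was 5.23%. Counts per gene were lowest for Blvrb in NMuMG (96 to 175 in obese libraries), where the standard error of obese over control was 0.237.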
